A study of Rattus norvegicus with 4 samples.

Results

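A set of 10 genes of inhibin, activin, follistatin and anti-Müllerian hormone (AMH) signalling were followed in rat granulosa cells, the cells that line the ovarian follicle and secrete inhibin. They were chosen by name: Inha, Inhba, Inhbb, Fst, Amh, Amhr2, Bmpr1b, Acvr2a, Tgfbr1 and Tgfbr3. Of these 10 genes, 9 have a probe set in the probe table, 13 probe sets in all, out of 14217 genes that it names, and Bmpr1b was not analysed here. The donors were female Sprague Dawley rats, immature at 27 days of age and primed for 48 h with PMSG, a gonadotropin that makes follicles grow. Both groups were transfected with siRNA at 20 nM and then kept in 10 µM forskolin, an activator of adenylyl cyclase, over 48 h. One group received Runx2 siRNA and the other a universal negative control siRNA, with 2 arrays in each group from separate cultures. Culture without forskolin or without transfection was not part of the comparison, so the values show how the siRNAs differ under forskolin and nothing about forskolin itself. The comparison asks which transcripts differ when Runx2, a transcription factor, is targeted by siRNA in these cells.

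Inhibins and activins are dimers built from shared subunits. Inhibin pairs the alpha subunit with a beta subunit and restrains pituitary release of follicle-stimulating hormone, whereas activin is a dimer of beta subunits and stimulates it. Follistatin binds activin and blocks it, betaglycan lets inhibin compete with activin for the activin type II receptor, and AMH signals through a type II receptor of its own. Type I receptors then pass the signal to Smad proteins, which enter the nucleus.

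The values are MAS5 signals, an array intensity on a linear scale, and differences were computed as log2(signal + 16), Runx2 siRNA minus control siRNA. Median signal was 129 to 153 on the 4 arrays, and the correlation between any 2 arrays was 0.949 to 0.980. One array, the second with Runx2 siRNA, differed from the rest in spike-in transcripts at 1.73 times the control mean, an actin 3' to 5' ratio of 1.71 against 1.42 to 1.45, and a highest signal of 30500 against 18398 to 19702. No probe set is paired with Runx2 in the probe table, so the extent of the knockdown was not measured here and the groups rest on the labels. All 7 granulosa markers in the table, among them Foxl2, Cyp19a1 and Star, lay above 78.6, the mean signal below which probe sets were left out as dim, with summed signals of 32464 to 36024 with Runx2 siRNA and 35559 to 38949 with control siRNA. The sum joins markers of opposite sign. All 3 Cyp19a1 probe sets were lower without overlap (-1.46 to -0.997 on the log2 scale). Cyp11a1 (-0.37) and Star (-0.19 and -0.16) were also lower without overlap, while Foxl2 was higher (0.30). Hsd17b1 differed by 0.81 and Nr5a2 by 0.30, 0.25 and -0.04, all overlapping between the groups. Nr5a1 was lower without overlap in 1 probe set (-0.32) and overlapped in the other (0.09). None of the 4 theca markers lay above the limit of 78.6, with summed signals of 229 to 281 with Runx2 siRNA and 144 to 191 with control siRNA. Summed leukocyte markers, 4 of 7 above that limit and the pan-leukocyte gene Ptprc below it, lay at 1046 to 1568 and 811 to 1368. Oocyte markers, 1 of 5 above it, summed to 584 to 893 and 398 to 628. Endothelial markers, 1 of 4 above it with Pecam1 below, summed to 293 to 329 and 249 to 308, and surface epithelium markers, 1 of 5 above it, to 178 to 286 and 210 to 221. Fibroblast and smooth muscle markers, 6 of 6 above it, lay at 1443 to 1771 and 1295 to 2007, and luteal markers, 3 of 4 above it, at 25621 to 29609 and 21142 to 25795. Among the luteal markers Hsd3b1 differed by 0.49, Lhcgr by -0.88 and -0.76 and Prlr by -0.46 to -0.79, all overlapping between the groups. Higher without overlap were the leukocyte marker Csf1r (0.70) and the fibroblast and smooth muscle markers Acta2 (0.52) and Des (0.45). The leukocyte marker Cd68 (-0.25) and the dimmer Col1a1 probe set (-0.46) were lower without overlap, while the brighter Col1a1 probe set overlapped (0.20). No marker named here passed the adjusted test. The part of other cells in the results was not tested. In such whole-culture RNA, fewer cells of a type and less RNA per cell cannot be told apart.

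With Runx2 siRNA the 3 inhibin and activin subunits each had a probe set that was higher on both arrays than on either control array, and the activin type II receptor Acvr2a was lower on both. Follistatin, Tgfbr1 and Tgfbr3 overlapped between the groups. Of the 12 probe sets bright enough to be tested, which stand for 8 genes, 4 were higher without overlap, 1 was lower without overlap and 7 overlapped. That is 41.7% without overlap, close to the 47.4% of all 18625 tested probe sets. The members' 4 higher and 1 lower became 2 and 2 with quantile scaling, and 4 and 2 with cyclic loess. The overall split was 28.8% higher and 18.5% lower, and it depends on scaling, with 4329 higher and 4327 lower after cyclic loess against 5369 and 3453 as deposited. By limma, adjusted over all tested probe sets, no member passed (adjusted p from 0.387 to 0.989), nor did any other probe set, so that percent called was 0. An unadjusted p under 0.05 was reached by 3 of the 12, Inha, a probe set of Inhba and Acvr2a, beside 11.9% of all tested probe sets. That share was 6.45% higher and 5.49% lower, or 1202 and 1023 probe sets, against 876 and 1241 after cyclic loess. The median difference was 0.13 over the 12 probe sets and 0.05 over all.

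**Figure D1:**
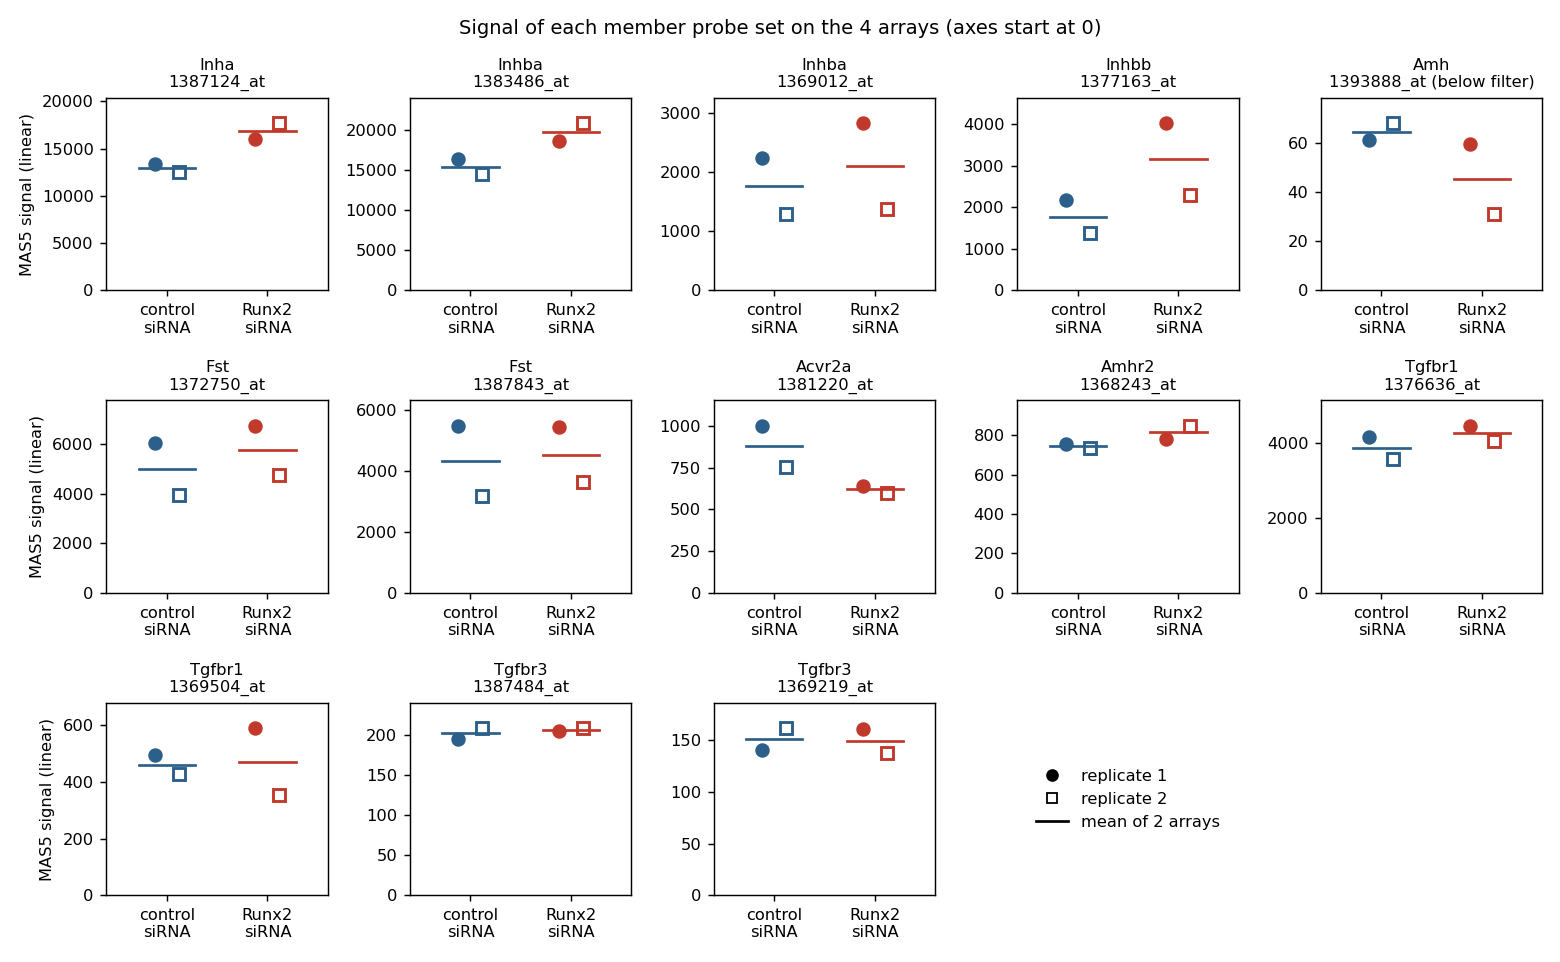
MAS5 signal (linear axes from 0) of each member probe set on the 4 arrays, with filled circles for replicate 1, open squares for replicate 2 and a line at the mean of 2 arrays. Both Runx2 siRNA arrays lie above both control arrays for Inha, the brighter Inhba probe set, Inhbb and Amhr2, and below them for Acvr2a, while Amh lay below the limit for testing.

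Inha, which encodes the alpha subunit that makes a dimer an inhibin, had signals of 15984 and 17693 with Runx2 siRNA and 13413 and 12500 with control siRNA. Both Runx2 siRNA arrays lay above both control arrays, and the arrays of a group differed less than the groups did. The means were 16838 ± 1208 and 12956 ± 646 (SD, n = 2 arrays each), a log2 difference of 0.38 ± 0.13 (SE), with a 95% interval of 0.06 to 0.69. It did not pass in limma after adjustment (adjusted p = 0.387). After quantile scaling, which sets the top of every array's distribution equal, the difference was 0.15 and the groups overlapped. The Inha difference was 0.25 for replicate number 1, 0.50 for replicate number 2, and 0.30 without the second Runx2 siRNA array.

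The 300 bases around the annotated start of Inha, from 250 before it to 50 after, are shown because Inha is the inhibin-specific subunit and its promoter is known for a cAMP response element that departs from the consensus. The sequence is from RefSeq on GRCr8, chr9:84442859-84443158, plus strand, and 8 of the 10 genes had such a window in that table. Capitals mark TGTGGT, the core of the Runx motif, and TGCGTCA, the variant cAMP element, which was added to the search after the sequences had been seen.
Inha: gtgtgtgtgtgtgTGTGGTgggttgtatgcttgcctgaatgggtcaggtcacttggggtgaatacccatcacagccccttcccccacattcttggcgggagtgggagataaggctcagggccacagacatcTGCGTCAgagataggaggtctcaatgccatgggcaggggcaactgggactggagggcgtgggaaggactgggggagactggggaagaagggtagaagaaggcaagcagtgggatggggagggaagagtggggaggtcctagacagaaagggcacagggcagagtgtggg
TGTGGT begins 237 bases before the start, at the end of a GT repeat, and TGCGTCA begins 119 bases before it. On either strand TGTGGT occurs in 17.3% of 33469 promoter windows of this length and TGCGTCA in 1.9%. Of the 8 members' windows, 1 held each, in both cases that of Inha. The consensus cAMP element TGACGTCA, present in 1.83% of all windows, its shorter form TGACGT, which it contains, in 7.94%, and the Smad palindrome GTCTAGAC, in 0.197%, were in 0 of the 8. A match is a stretch of letters and not a measured site, and the lack of one says only that these letters are not in these windows.

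Inhbb, which encodes the beta B subunit of inhibin B and activin B, had the largest difference of the tested members. Its signals were 4023 and 2295 with Runx2 siRNA and 2174 and 1373 with control siRNA. The groups were separated only narrowly, by 0.08 on the log2 scale between the second Runx2 siRNA array and the first control array, because the array numbered 2 was the lower one in each group. The means were 3159 ± 1222 and 1773 ± 566 (SD, n = 2 arrays each), a log2 difference of 0.81 ± 0.33 (SE) or 1.75-fold, with a 95% interval of -0.03 to 1.65. It did not pass in limma (adjusted p = 0.423). Between arrays of the same number the difference was of like size, 0.88 for number 1 and 0.73 for number 2. The numbers themselves differed by -0.81 within the Runx2 siRNA group and by -0.66 within the control group. Leaving out the first Runx2 siRNA array gave 0.41 and leaving out the second gave 1.21. The values were 1.14 without control array 1 and 0.48 without control array 2.

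The Inhbb window is shown beside that of Inha because the sequences of these subunits' promoters differ in kind while both transcripts were higher with Runx2 siRNA. It comes from RefSeq on GRCr8, chr13:33089324-33089623, minus strand, and runs 5′ to 3′ in the sense of the gene. Capitals mark the GC box GGGCGG, also added after the sequences had been seen.
Inhbb: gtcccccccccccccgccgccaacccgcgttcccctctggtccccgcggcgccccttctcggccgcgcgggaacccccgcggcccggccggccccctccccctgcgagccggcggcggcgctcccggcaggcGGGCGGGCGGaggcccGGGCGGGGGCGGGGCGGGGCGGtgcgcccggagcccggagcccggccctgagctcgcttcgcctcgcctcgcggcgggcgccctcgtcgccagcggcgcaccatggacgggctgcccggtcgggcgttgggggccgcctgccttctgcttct
The window held 6 matches to GGGCGG, between 118 and 86 bases before the start and several of them sharing bases, and was 84.3% G and C, against 59.0% for Inha. GGGCGG occurs on either strand in 33.1% of all windows and in 3 of the 8 members' windows, those of Inhbb, Tgfbr1 and Tgfbr3. No Runx core was in the Inhbb window.

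Inhba, which encodes the beta A subunit of inhibin A and activin A, was measured by a pair of probe sets that did not behave alike. The brighter one had signals of 18599 and 20807 with Runx2 siRNA and 16320 and 14488 with control siRNA. Its groups did not overlap, with means of 19703 ± 1561 and 15404 ± 1295 (SD, n = 2 arrays each) and a log2 difference of 0.36 ± 0.14 (SE; 95% interval 0.01 to 0.70; adjusted p = 0.415 by limma). After quantile scaling it was 0.12 and the groups overlapped. The dimmer probe set gave 2838 and 1374 with Runx2 siRNA and 2237 and 1303 with control siRNA, so its arrays were ordered by number and not by siRNA. Its difference was 0.21 ± 0.41 (SE), with a 95% interval of -0.82 to 1.24, and the array numbered 2 was lower by 1.04 with Runx2 siRNA and by 0.77 with control siRNA. Leaving out single arrays moved this dimmer probe set from -0.31, without the first Runx2 siRNA array, to 0.73, without the second. It was -0.18 without the second control array and 0.59 without the first. The brighter probe set stayed between 0.27 and 0.44 in the same fits.

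**Figure D2:**
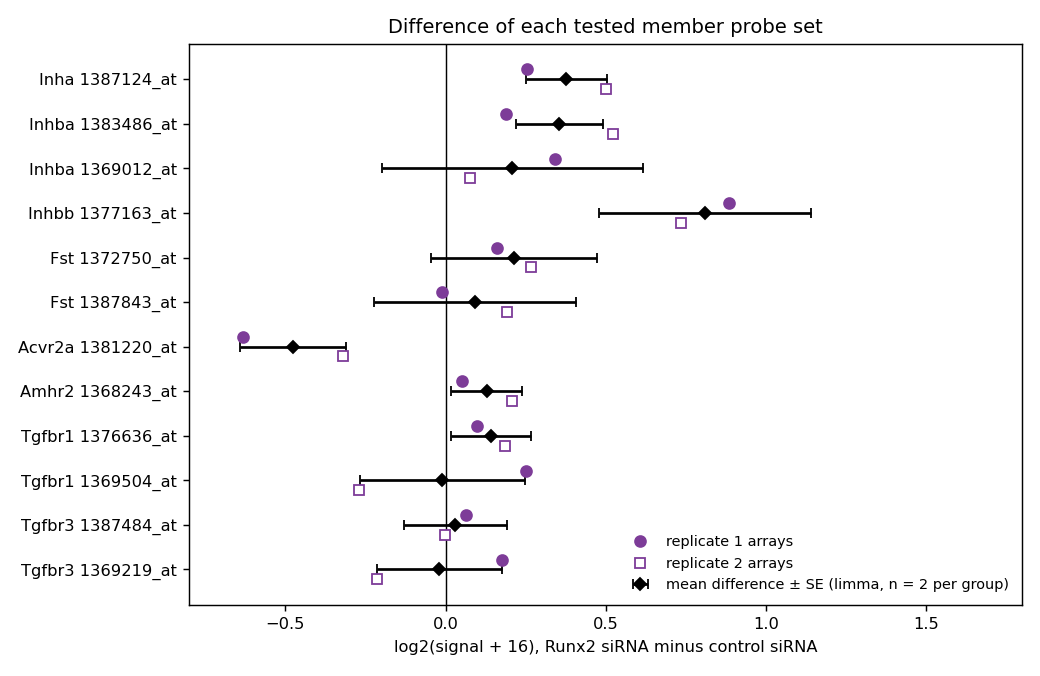
Log2 difference, Runx2 siRNA minus control siRNA, of each of the 12 tested member probe sets, as the mean ± SE from limma (diamonds, n = 2 per group) and between the arrays of each number (circles and squares). Inhbb lies farthest to the right at 0.81 and Acvr2a farthest to the left at -0.48, with both numbers on the same side for each.

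Fst encodes follistatin, the protein that binds and neutralises activin, and its 2 probe sets gave like patterns. The brighter gave 6767 and 4780 with Runx2 siRNA and 6051 and 3970 with control siRNA. The other gave 5459 and 3635 against 5501 and 3181. In both probe sets the arrays numbered 1 were high and those numbered 2 low, whichever siRNA the cells had received, and the groups overlapped. The differences were 0.21 ± 0.26 and 0.09 ± 0.32 (SE, n = 2 arrays per group), with 95% intervals of -0.44 to 0.87 and -0.71 to 0.89, which leave room for a change of either sign. Between numbers the brighter probe set differed by -0.50 with Runx2 siRNA and by -0.61 with control siRNA. The sign of both Fst differences turned without the first Runx2 siRNA array (-0.04 and -0.20) and without the second control array (-0.09 and -0.30). Without the second Runx2 siRNA array they were 0.46 and 0.38, and without the first control array 0.52 and 0.48.

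Amh, the ligand of growing follicles that is made by granulosa cells, lay below the limit for testing, with a mean of 54.8 over the 4 arrays. Its signals were 59.4 and 30.9 with Runx2 siRNA and 60.9 and 68.0 with control siRNA. Both Runx2 siRNA arrays lay below both control arrays, but the first by only 0.03 on the log2 scale, and no test was made. Amhr2, the type II receptor that binds AMH, had signals of 780 and 848 against 753 and 734. Its groups were separated by only 0.05 on the log2 scale, and the difference was 0.13 ± 0.11 (SE; 95% interval -0.15 to 0.41; adjusted p = 0.630 by limma). It was 0.07 without the second Runx2 siRNA array.

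Acvr2a, a type II receptor that binds activin and several bone morphogenetic proteins, was the one tested member that was lower on both Runx2 siRNA arrays. Signals were 641 and 600 with Runx2 siRNA and 1001 and 753 with control siRNA. The Runx2 siRNA arrays lay close together, and most of the spread was between the control arrays. The means were 620 ± 28.8 and 877 ± 175 (SD, n = 2 arrays each), a log2 difference of -0.48 ± 0.16 (SE), or 0.719 times the control level, with a 95% interval of -0.89 to -0.06. It did not pass in limma (adjusted p = 0.389). By replicate number it was -0.63 for number 1 and -0.32 for number 2. Without the first control array it was -0.28, against -0.43 to -0.68 without each of the others. The difference was -0.47 after quantile scaling and -0.48 after cyclic loess.

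Tgfbr1, also called ALK5, is the type I receptor of transforming growth factor beta. Its brighter probe set had signals of 4473 and 4058 with Runx2 siRNA and 4179 and 3566 with control siRNA, which overlap, and a difference of 0.14 ± 0.12 (SE, n = 2 arrays per group; 95% interval -0.17 to 0.46). It was 0.07 without the first Runx2 siRNA array, 0.03 without the second control array and 0.26 without the first. The dimmer one gave 591 and 353 against 494 and 429, with the Runx2 siRNA arrays on either side of the controls, and a difference of -0.01 ± 0.26. That dimmer value was -0.37 without the first Runx2 siRNA array, 0.35 without the second, 0.09 without control array 1 and -0.11 without control array 2. Tgfbr3 encodes betaglycan, the co-receptor that gives inhibin its affinity for type II receptors. Its probe sets gave 205 and 209 against 196 and 209, and 161 and 137 against 141 and 162. The differences were 0.03 ± 0.16 and -0.02 ± 0.20 (SE), with 95% intervals of -0.37 to 0.44 and -0.51 to 0.47. After quantile scaling and cyclic loess the brighter Tgfbr3 probe set was at -0.05 and -0.08, and its groups were then separated with Runx2 siRNA the lower.

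The members divided by how they varied with replicate number. In 7 of the 12 tested probe sets, both of Fst and of Tgfbr1, the dimmer of Inhba, Inhbb and Acvr2a, the array numbered 2 was lower than the array numbered 1 in each group. The same held for 32% of all tested probe sets. In 1, the brighter Tgfbr3 probe set, number 2 was higher in each group, beside 35.2% of all. In 6 of the 12 the mean difference between numbers was larger than the difference between siRNAs. The share over all tested probe sets was not computed, so this count cannot be read as a trait of the members. Inha, the brighter Inhba probe set and Amhr2 had number differences of opposite sign in the 2 groups, with the second array the higher with Runx2 siRNA and the lower with control siRNA. With replicate number as a term in limma 8.12% of all tested probe sets passed, Inhbb and Acvr2a among them. The labels leave unsaid whether cultures of equal number came from the same preparation of cells.

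**Figure D3:**
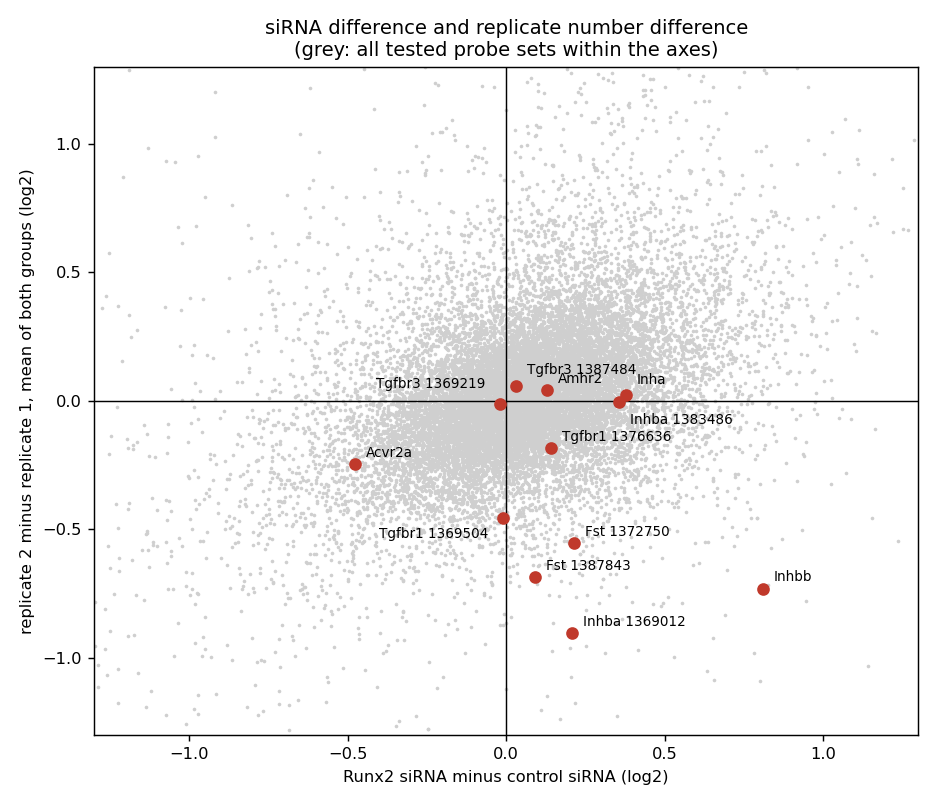
Log2 difference between siRNAs (horizontal) against the log2 difference between replicate numbers, averaged over both groups (vertical), for the 12 tested member probe sets in red and all tested probe sets within the axes in grey. Inhbb lies far from 0 on both axes, Fst and the dimmer Inhba probe set mainly on the vertical one, and Inha, the brighter Inhba probe set and Acvr2a mainly on the horizontal one.

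Leaving out single arrays did not turn the sign of Inha, the brighter Inhba probe set, Inhbb, Acvr2a, Amhr2 or the brighter Tgfbr1 probe set. For all of these but Tgfbr1 the groups do not overlap, so leaving out a single array could not turn the sign. The dimmer Inhba, dimmer Tgfbr1 and all Fst and Tgfbr3 probe sets changed sign at least once.

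**Figure D4:**
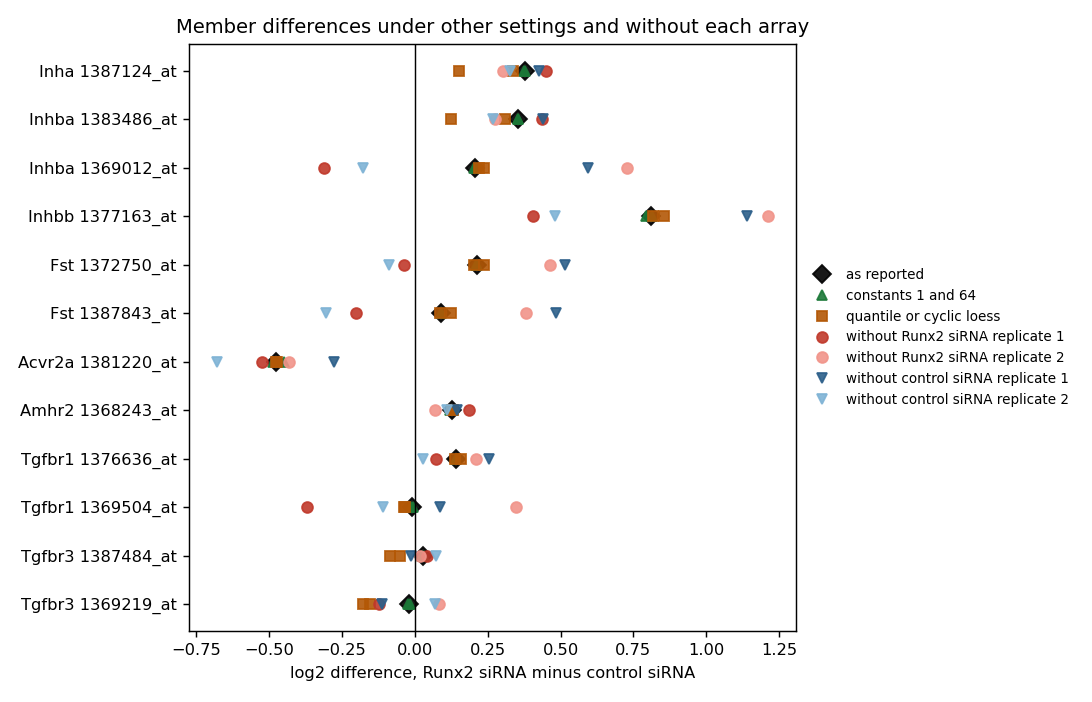
Log2 difference of the 12 tested member probe sets as reported (diamonds), with constants of 1 and 64, after quantile or cyclic loess scaling, and without each array. Constants moved the points little, leaving out arrays moved Inhbb between 0.41 and 1.21, and quantile scaling brought Inha to 0.15 and the brighter Inhba probe set to 0.12.

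Beyond the members, a list of 62 further genes of the transforming growth factor beta superfamily was examined, of which 53 were named in the probe table and 38 were bright enough to be tested, each by its brightest probe set. By limma 0 of the 38 passed over all probe sets, and 5 had an unadjusted p under 0.05, beside 12.4% of all genes. With replicate number as a term 8 of the 38 passed, among them Bmp2, Bmp3, Smad3, Smad5 and Bambi. The share of all genes by brightest probe set was not computed for that term. The 8.12% of all tested probe sets that passed is not a like share, since it counts probe sets and not genes. Without overlap, 12 were higher and 4 lower with Runx2 siRNA, 31.6% and 10.5%, beside 28.8% and 19.6% of the 10017 genes tested. The list's median difference was 0.14, and that of all genes was 0.05. Leaving out the second Runx2 siRNA array or control array 1 brought the list to 0.04 each time, beside 0.04 and 0.03 over all. Leaving out the first Runx2 siRNA array brought it to 0.26.

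Among 8 tested ligands 1 was higher and 3 were lower without overlap, 50% in all beside 48.4% of all genes. Bmp3, which encodes a bone morphogenetic protein known to oppose others of its family, had signals of 236 and 295 with Runx2 siRNA and 512 and 531 with control siRNA. The groups were far apart relative to their spread, with a log2 difference of -0.94 ± 0.16 (SE; adjusted p = 0.301 by limma). Bmp2, an osteogenic ligand, gave 6332 and 7699 against 4707 and 5875, a difference of 0.41 ± 0.16, and its dimmer probe set gave 1880 and 1678 against 1128 and 1147, a difference of 0.64 ± 0.11. Both Bmp2 probe sets were higher on both Runx2 siRNA arrays. Tgfb1, a ligand of Tgfbr1, gave 357 and 224 against 390 and 467, a difference of -0.57 ± 0.25, or -0.25 without the second Runx2 siRNA array. Gdf15, a stress-induced ligand, gave 66.0 and 81.2 against 351 and 89.7, so that its difference of -1.14 ± 0.59 was -0.24 without that first control array.

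Of 4 tested receptors, 2 were higher without overlap and 0 lower, 50% beside 48.4% of all genes. Acvr1, a type I receptor of activin and bone morphogenetic proteins, gave 1001 and 1072 with Runx2 siRNA and 782 and 950 with control siRNA, a difference of 0.26 ± 0.13 (SE, n = 2 arrays per group). Its dimmer probe sets lay at 0.56 ± 0.15 and 0.47 ± 0.17, and both were also separated between the groups. Acvr2b, the close relative of Acvr2a, was at 196 and 199 against 183 and 167, a difference of 0.16 ± 0.17, or 0.03 after cyclic loess. Bmpr2, the type II receptor of bone morphogenetic proteins, overlapped at -0.09 ± 0.27. Acvr1b was not analysed here.

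Smads relay these signals, and of the 8 tested, 4 were higher and 1 was lower without overlap, 50% and 12.5% beside 28.8% and 19.6% of all genes, a difference that was not tested. Smad3, the partner of Smad2 downstream of activin and transforming growth factor beta, had signals of 2202 and 2078 with Runx2 siRNA and 1590 and 1469 with control siRNA. The pairs within each group were close, and the difference was 0.48 ± 0.10 (SE, n = 2 arrays per group; adjusted p = 0.346 by limma), with a dimmer probe set at 0.20 ± 0.19. Smad2 differed by 0.13 ± 0.10. Smad4, the common partner, overlapped at 0.14 ± 0.12, with its dimmer probe set at 0.00 ± 0.12. Smad5, which acts downstream of bone morphogenetic proteins and AMH, differed by 0.39 ± 0.11, with its dimmer probe sets between 0.07 and 0.34. Smad7, an inhibitory Smad, lay at 0.36 ± 0.19 and, in a dimmer probe set, at -0.17 ± 0.22. Smad9 lay at -0.30 ± 0.14 and its dimmer probe set at 0.13 ± 0.24, a sign that turned after quantile scaling (-0.02) and cyclic loess (-0.03).

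Of 9 tested binding proteins and inhibitors, 2 were higher without overlap and 0 lower, with 22.2% higher beside 28.8% of all genes. The group's largest differences belonged to genes that overlapped, named here after their values were seen: Ltbp1, a latent transforming growth factor beta binding protein, at -0.64 ± 0.34 and Dcn, decorin, at 0.62 ± 0.46 (SE). The Ltbp1 difference was -0.51 for replicate number 1 and -0.77 for number 2. Bambi, a pseudoreceptor that blocks type I receptors, gave 4489 and 4722 with Runx2 siRNA against 3290 and 3724 with control siRNA, a difference of 0.39 ± 0.11 (SE, n = 2 arrays per group). Skil, a repressor that binds Smads, differed by 0.20 ± 0.13, with its groups separated by only 0.0060 on the log2 scale. Of 9 tested target genes, by brightest probe set, 3 were higher without overlap and 0 lower, with 33.3% higher beside 28.8% of all genes. Id2, named here after its values were seen, overlapped in its brightest probe set at -0.16 ± 0.13 (SE). Its dimmer probe set was lower without overlap, with 3630 and 2199 against 5478 and 4714. The difference in that dimmer Id2 probe set was -0.84 ± 0.25. Foxl2, the forkhead factor of granulosa cell identity, gave 6255 and 6569 against 5311 and 5103, a difference of 0.30 ± 0.10. Tsc22d1 lay at 0.44 ± 0.21, 0.21 after quantile scaling and 0.15 without the second Runx2 siRNA array, with a dimmer probe set at 0.48 ± 0.22. Nedd9, a scaffold protein, lay at 0.29 ± 0.15, with its dimmer probe set at -0.01 ± 0.15.

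**Figure D5:**
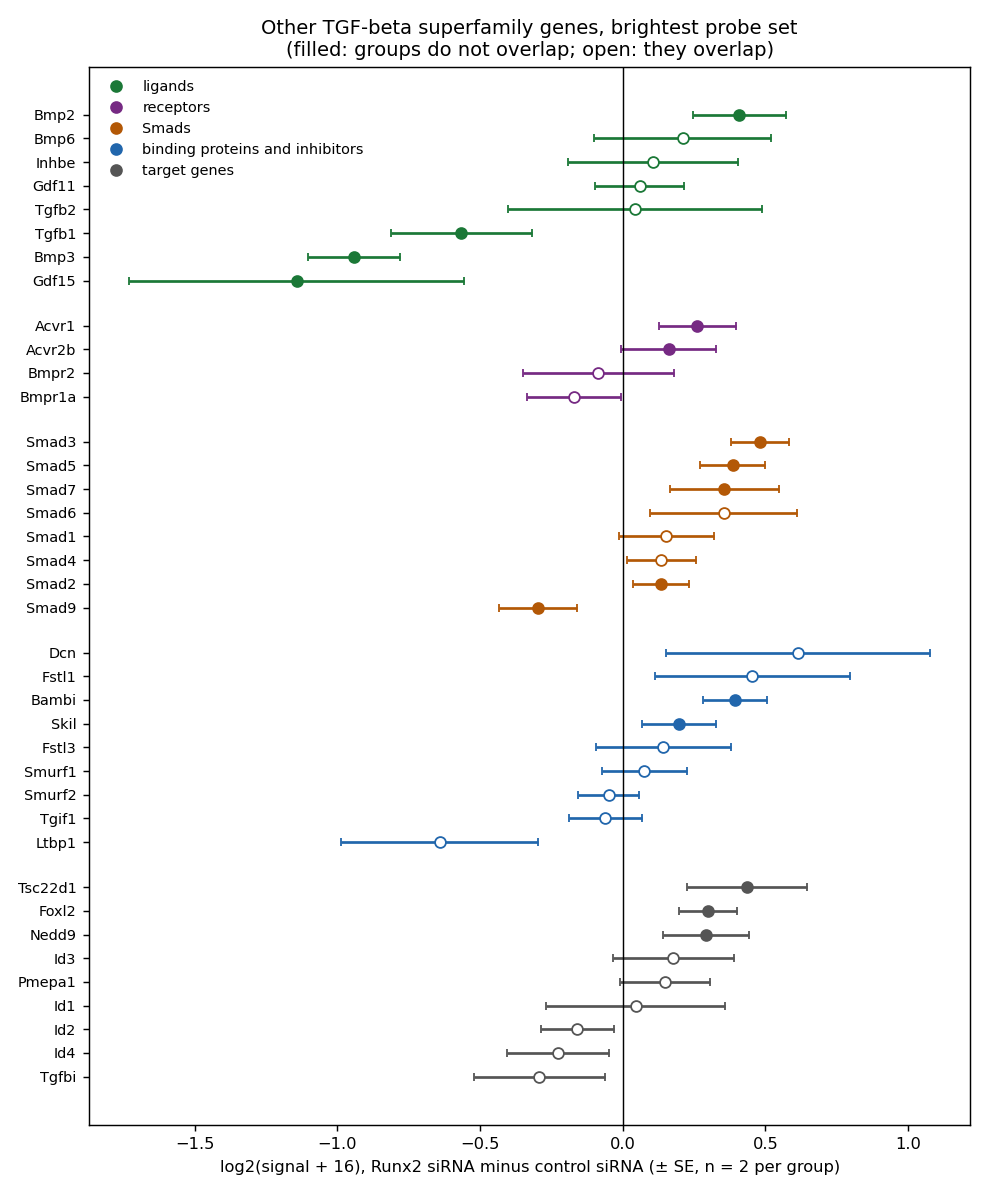
Log2 difference, Runx2 siRNA minus control siRNA, of the 38 tested genes of the wider list by group, as mean ± SE from limma (n = 2 per group), filled where the groups do not overlap. Bmp3 lies at -0.94 among the ligands and Smad3 at 0.48 among the Smads.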

How the data were processed

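Total RNA of 4 rat granulosa cell cultures was labelled with biotin and hybridised to 1-colour arrays, 1 per culture. The authors deposited linear intensity values from MAS5, per the submitters' processing notes. The version and settings of MAS5 are not given in the sources used here. Trimmed mean signal was equal on all arrays, so a shift in RNA content of the whole cell would not show. MAS5 subtracts mismatch probes and so makes dim probe sets variable.

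Of 31099 probe sets, 57 array controls were left out. The probe table, which is old, gives 1 gene symbol for 20826 of the rest, several for 436 and none for 9780. Gene identifiers matched a GRCr8 gene table for 20764, and 0 symbols changed. The lowest 40% by mean signal, below 78.6, were left out, which left 18625. Tests used log2(signal + 16), on which changes of dim probe sets come out too small, and limma 3.58.1 in R 4.3.3 (lmFit, eBayes with an intensity trend, two-sided, Benjamini-Hochberg, threshold 0.05, no term for replicate number, 2 residual and 3.32 prior degrees of freedom). The fit was tested on simulated data with independent noise on each array, which leaves out the correlation seen between arrays of equal number. P-values rest on the spread between 2 arrays per group, drawn by limma toward that of probe sets of like signal. The number of arrays limits all precision. A gene of the wider list was represented by its brightest tested probe set.

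The members and lists were chosen with earlier results of these data known. All members are named; of the wider list, within each group, up to 4 genes with the largest differences among those without overlap, and the direct partners Acvr1b, Acvr2b, Bmpr2, Smad2, Smad3 and Smad4. The settings varied were the added constant (1 or 64), the scaling (quantile or cyclic loess), no filter, a filter at 60%, the replicate number as a term, no intensity trend, the mean of a gene's probe sets, and leaving out each array.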

Additional observations from a re-analysis of the deposited data

How the results depend on the processing

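With 2 arrays per group, precision is limited by their number. The count of 0 probe sets past the adjusted threshold did not move under any alternative except the replicate block. With the replicate number as a block, 1512 of the 18625 probe sets passed by limma (8.12%; 610 higher, 902 lower), among them Inhbb (adjusted p = 0.0019) and Acvr2a (adjusted p = 0.038) of the members and 8 genes of the wider list: Bmp3, Ltbp1, Smad3, Fstl1, Dcn, Bambi, Smad5 and Bmp2. No other member was called under the block. For the 8 genes of the wider list a like share of all genes was not computed, since 8.12% counts probe sets and not genes. Deviations from the group means correlated at 0.548 between arrays of equal number. With 2 arrays per group the deviations mirror each other, so both numbers give the same value. This is a hint from 1 contrast per group and not from the labels, so the numbers were not taken as pairs. With the block 4862 probe sets had an unadjusted p under 0.05, and without single arrays 871 (first control array) to 3596 (first Runx2 siRNA array); a lone array was assumed to vary like the other group. Probe sets with non-overlapping groups numbered 14043 without the filter on dim signals, which tests more probe sets, and 12167 to 15334 without single arrays, where 1 array of a group is easily outside 2. Of the member probe sets 7 to 11 of 12 were separated without single arrays. That is 58.3% to 91.7%, beside 65.3% to 82.3% of all tested probe sets in the same fits. The wider list's median was 0.040 to 0.26 without single arrays. For the 12 tested member probe sets, 127 of 142 results under an alternative kept their direction and side of the threshold, 2 passed it under the block and 13 reversed. Where the groups do not overlap, leaving out 1 array cannot reverse the direction. The reversals from scaling were those of the brighter Tgfbr3 probe set, at -0.050 (quantile) and -0.083 (cyclic loess). Without single arrays the ranges were -0.31 to 0.73 for the dimmer Inhba, -0.089 to 0.52 and -0.30 to 0.48 for the brighter and dimmer Fst, -0.37 to 0.35 for the dimmer Tgfbr1, and -0.014 to 0.074 and -0.12 to 0.084 for Tgfbr3. For the 30 named probe sets of the wider list, 7 of 353 results passed the threshold, under the block in each case, and 10 reversed. The dimmer Smad9 probe set was at -0.015 (quantile) and -0.028 (cyclic loess) and at -0.12 to 0.39 without single arrays. The others reversed only without single arrays, over -0.11 to 0.11 for the dimmer Smad4, -0.037 to 0.17 for a Smad5, -0.42 to 0.25 for Bmpr2 and -0.067 to 0.047 for the dimmer Nedd9 probe set. The cause was not tested.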
